A study of Homo sapiens with 6 samples.

Results

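The genes described here are the NF-kappaB subunits NFKB1, NFKB2, REL, RELA and RELB and the feedback inhibitors NFKBIA, NFKBIE, NFKBIZ, TNFAIP3 and BIRC3. The members were all probe sets that the platform annotation assigns to exactly 1 of these 10 symbols. This assignment uses no measured value, but the 10 symbols were chosen with earlier results of these data known. The annotation gave 19 probe sets for 9 of the 10 genes, out of 41091 probe sets and 19775 genes with a single symbol. BIRC3 had no probe set assigned to it alone and was not analysed here. MDA-MB-231, an estrogen receptor-negative human breast cancer cell line, was transfected with LSD1 siRNA (3 arrays) or control siRNA (3 arrays). RNA was taken on day 6, after 2 rounds of transfection in both groups, and each group holds 3 biological replicates of this single line. The comparison asks how transcript levels differ when LSD1, the histone demethylase encoded by KDM1A, is depleted. Values are MAS5 signals on a linear scale, and a change is the difference of log2(signal + 15), LSD1 siRNA minus control siRNA.

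NF-kappaB is a family of dimeric transcription factors that share a Rel homology domain. In resting cells inhibitor proteins of the IkappaB family hold the dimers in the cytoplasm, until IkappaB kinase marks the inhibitor for destruction and the dimers bind kappaB sites in the DNA. Several inhibitor genes are themselves targets of NF-kappaB, which closes a negative feedback loop, and estrogen receptor-negative breast cancer lines are known for constitutive NF-kappaB activity. The probe sets measure transcripts, whereas the activity of the subunits is set largely by where the proteins are and how they are modified, which was not measured here.

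Promoter sequences from RefSeq (GRCh38.p14) show how many of these genes carry the family's own recognition motif. The table held windows from 250 bases before to 50 bases after annotated start sites for 8 of the 10 genes, NFKBIE and RELB being the others. The kappaB consensus, a motif of 10 bases, was searched on both strands. It matched in at least 1 window of 7 of the 8 genes and in 9 of their 13 windows, against 7.09% of 27305 genes and 5.91% of 35116 windows over all genes. The members were chosen as NF-kappaB genes, several of them known targets, so a high share is no independent result. The members also have more windows per gene than all genes, which raises the share counted by gene. RELA was the member without a match in its 2 windows. A match describes the letters only and does not show that the site is bound in these cells. The stretches below are read on the gene's strand, 5′ to 3′, with the matches in capitals, and come from members whose main probe set rose (NFKBIA, NFKBIZ, TNFAIP3, NFKB2) and from 2 subunits that were not called (NFKB1, REL). For each gene 1 stretch is shown. NFKB2 also has 3 matches in another window and 1 at -176 in the window shown, and NFKBIZ has 1 in another window.
NFKBIA, chr14:35404801-35404850, minus strand: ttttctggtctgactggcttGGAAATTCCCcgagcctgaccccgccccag
NFKBIZ, chr3:101827747-101827796, plus strand: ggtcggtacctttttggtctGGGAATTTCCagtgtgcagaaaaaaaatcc
TNFAIP3, chr6:137867172-137867233, plus strand: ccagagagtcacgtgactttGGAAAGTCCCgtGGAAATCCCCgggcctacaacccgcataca
NFKB2, chr10:102395664-102395713, plus strand: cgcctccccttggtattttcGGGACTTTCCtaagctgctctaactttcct
NFKB1, chr4:102501290-102501339, plus strand: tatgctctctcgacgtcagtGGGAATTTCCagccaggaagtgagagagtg
REL, chr2:60881507-60881557, plus strand: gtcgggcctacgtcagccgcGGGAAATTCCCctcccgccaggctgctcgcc
The match shown for NFKBIZ and that of NFKB1 have the same letters, GGGAATTTCC, at positions -223 and -49 from their start sites. The match of NFKBIA and the second of REL, GGAAATTCCC, are these letters read on the opposite strand. TNFAIP3 holds a pair of matches that begin at -67 and -55, and REL holds a pair that overlap, 1 on each strand.

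The feedback inhibitors rose and most subunits were not called. All 4 measured inhibitor genes rose with LSD1 siRNA, by 0.23 to 0.89 on the log2 scale, and of the 5 subunit genes NFKB2 alone rose. Of the 9 member genes, 5 were therefore higher and 0 were lower, and at an unadjusted p of 0.05 the counts were also 5 and 0 (limma). Over all 13847 genes tested with limma, 41.1% were called, 19.8% as higher and 21.3% as lower, so calls in both directions were common in this comparison. The median log2 change was 0.60 for the 4 inhibitor genes and -0.10 for the 5 subunit genes, against -0.02 for all genes tested. For 8 of the 9 member genes the LSD1 siRNA and control siRNA arrays did not overlap, against 50.4% of all genes. KDM1A, the targeted gene, had 9.58% of its control signal on the LSD1 siRNA arrays, with a log2 change of -3.32 ± 0.13 (SE; limma adjusted p = 1.49e-08). It was measured by 1 probe set. An exact permutation test of its signals gave p = 0.1, the smallest value this number of arrays can give.

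**Figure D1:**
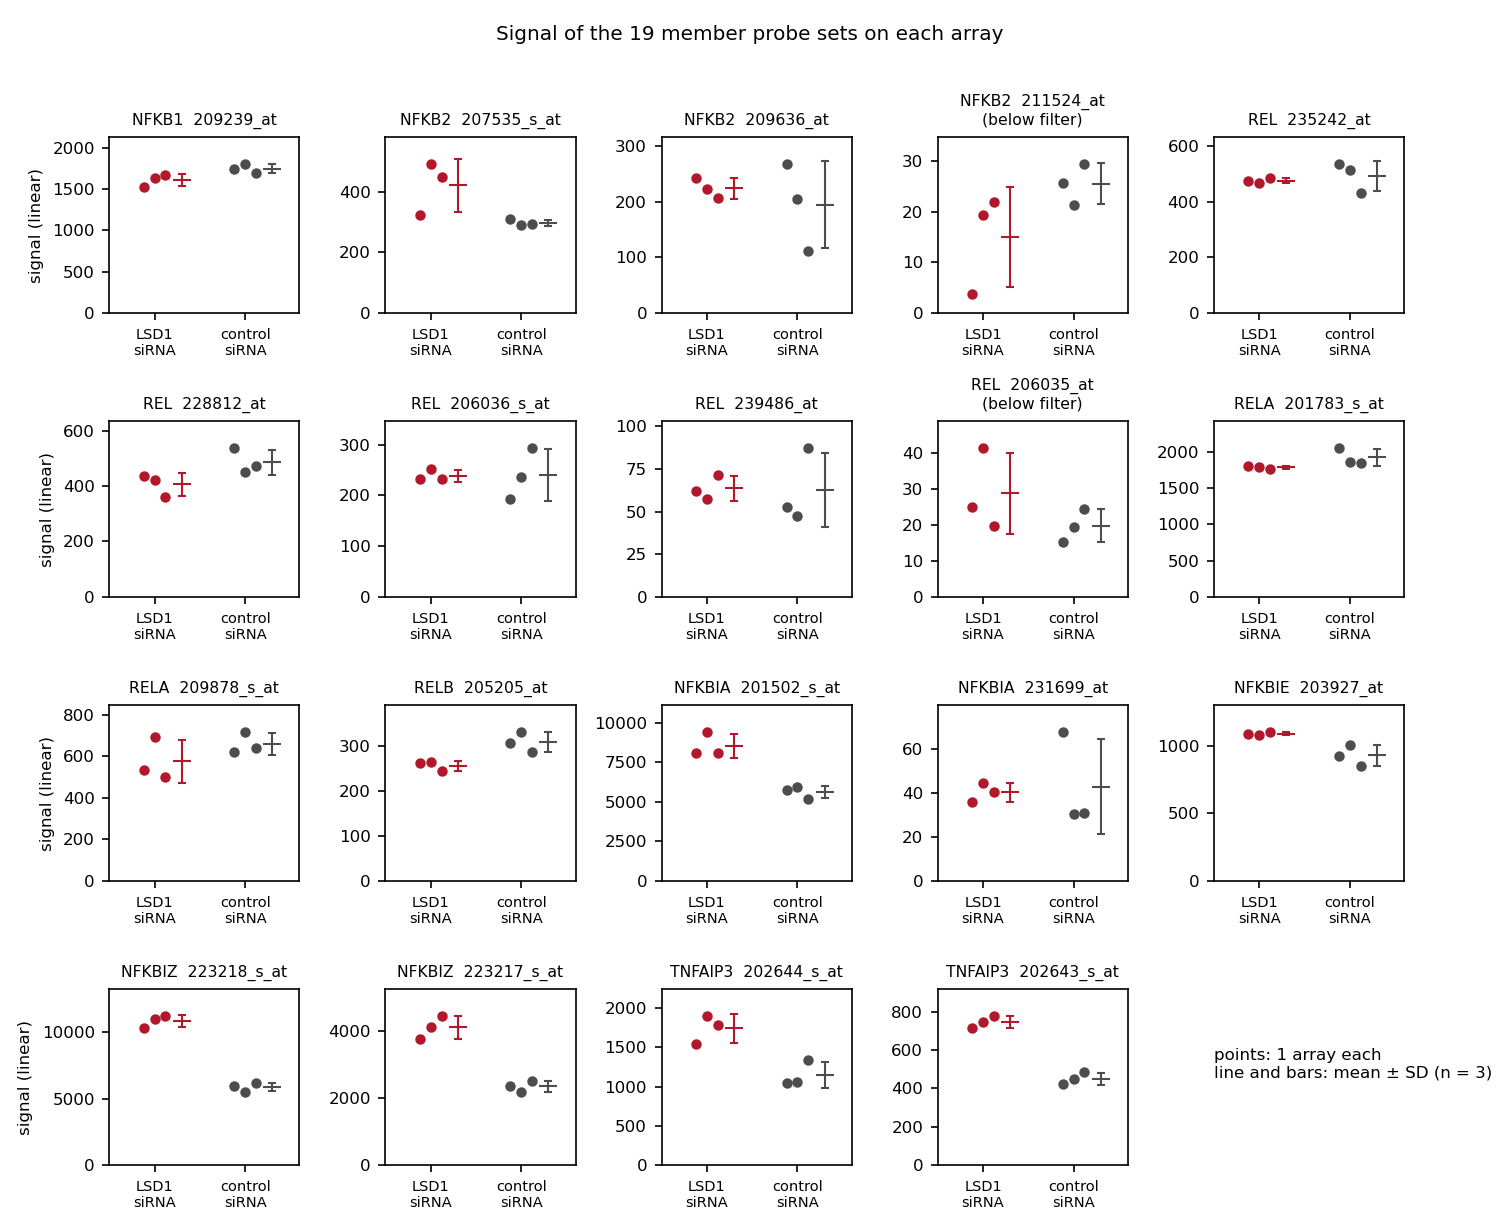
Linear MAS5 signal of the 19 member probe sets, 1 panel each with its own axis from 0. Red points are the 3 LSD1 siRNA arrays and grey points the 3 control siRNA arrays, with the mean and SD (n = 3) beside them. The brighter sets of NFKBIA, NFKBIZ and TNFAIP3 lie clear of their controls, while the REL panels overlap in 4 of 5 cases.

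NFKBIZ showed the largest change of the members. It encodes IkappaB-zeta, a nuclear protein of the inhibitor family that binds the p50 subunit and is known both to inhibit NF-kappaB and to help induce a subset of its targets, such as IL6. Its brighter probe set, 223218_s_at, gave signals of 10358, 10997 and 11221 with LSD1 siRNA, against 5967, 5507 and 6149 with control siRNA. Every LSD1 siRNA array was far above every control array. The change was 0.89 ± 0.06 (SE; limma adjusted p = 9.49e-07), and 643 of the genes tested had a larger rise. The other set, 223217_s_at, gave 3758, 4108 and 4437 with LSD1 siRNA and 2354, 2183 and 2512 with control siRNA. Its change of 0.80 ± 0.08 (SE; limma adjusted p = 1.10e-05) was of similar size, and its groups did not overlap either.

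NFKBIA encodes IkappaB-alpha, the inhibitor known for its rapid resynthesis after NF-kappaB is activated. Its set 201502_s_at had signals of 8100, 9400 and 8107 with LSD1 siRNA, against 5748, 5926 and 5182 with control siRNA. The groups were separate, with LSD1 siRNA array 2 the highest. The mean was 8536 ± 749 with LSD1 siRNA and 5619 ± 388 with control siRNA (SD, n = 3 each), a log2 change of 0.60 ± 0.08 (SE; limma adjusted p = 6.54e-05). A second set, 231699_at, was dim, at 35.8, 44.6 and 40.6 with LSD1 siRNA and 67.7, 30.3 and 30.8 with control siRNA. These groups overlapped, control array 1 stood apart from the other controls, and the change was -0.0084 with a 95% interval from -0.73 to 0.71. The mean of both sets gave NFKBIA a change of 0.30 (limma adjusted p = 0.109), so its call rests on the bright set.

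TNFAIP3 encodes A20, a ubiquitin-editing enzyme that shuts down signalling from the TNF receptor and Toll-like receptors upstream of IkappaB kinase. The set 202644_s_at had signals of 1541, 1901 and 1790 with LSD1 siRNA, against 1040, 1057 and 1341 with control siRNA. Control array 3 was the highest of its group, and it still lay below all LSD1 siRNA arrays. The change was 0.60 ± 0.11 (SE; limma adjusted p = 0.000731). The set 202643_s_at had 718, 747 and 779 with LSD1 siRNA and 422, 449 and 484 with control siRNA. Its arrays were tighter within each group, and its change was 0.71 ± 0.09 (SE; limma adjusted p = 8.87e-05). Both TNFAIP3 sets and both NFKBIZ sets therefore rose.

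NFKBIE encodes IkappaB-epsilon, an inhibitor that holds mainly RELA and REL dimers. Its single set had signals of 1086, 1076 and 1100 with LSD1 siRNA, against 926, 1006 and 850 with control siRNA. The LSD1 siRNA arrays lay close together just above the highest control array. The change of 0.23 ± 0.08 (SE; limma adjusted p = 0.0364) was the smallest of the inhibitors. It was not called with no intensity trend (adjusted p = 0.0744) or when any single array other than control array 2 was left out (adjusted p up to 0.104).

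NFKB2 was the subunit gene that was called. It encodes p100, which is cut to the DNA-binding subunit p52 in the non-canonical pathway and which, uncut, holds other subunits in the cytoplasm like an IkappaB. The set 207535_s_at had signals of 323, 491 and 448 with LSD1 siRNA, against 309, 290 and 293 with control siRNA. The groups did not overlap, but LSD1 siRNA array 1 was close to the control arrays and the other LSD1 siRNA arrays were well above them. The change was 0.46 ± 0.14 (SE; limma adjusted p = 0.0236). Leaving out LSD1 siRNA array 1 raised it to 0.63, and leaving out LSD1 siRNA array 2 or 3, or control array 2 or 3, ended the call (adjusted p between 0.0504 and 0.110). NFKB2 was also not called with no intensity trend (adjusted p = 0.0694) or with the mean of its probe sets, which was 0.078 (adjusted p = 0.762). The set 209636_at gave 243, 224 and 206 with LSD1 siRNA and 268, 205 and 112 with control siRNA, with overlapping groups and a change of 0.26 (95% interval from -0.26 to 0.79). The third set, 211524_at, was below the filter on dim values, at 3.80, 19.2 and 21.9 with LSD1 siRNA and 25.7, 21.4 and 29.4 with control siRNA.

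NFKB1 and RELA encode the parts of the classical p50 and p65 dimer. NFKB1, whose product p105 is cut to p50, had signals of 1520, 1633 and 1664 with LSD1 siRNA, against 1735, 1802 and 1697 with control siRNA. Its LSD1 siRNA arrays were all slightly lower, and the change of -0.12 was not called (95% interval from -0.26 to 0.03; limma adjusted p = 0.176). RELA, the gene of the activating subunit p65, had 1797, 1795 and 1763 with LSD1 siRNA and 2050, 1861 and 1850 with control siRNA at the set 201783_s_at. These groups were separate by a small margin, and the change of -0.10 was not called either (95% interval from -0.25 to 0.04; limma adjusted p = 0.241). The second RELA set, 209878_s_at, had 536, 695 and 500 with LSD1 siRNA and 622, 717 and 639 with control siRNA. LSD1 siRNA array 2 lay among the controls there, and the change of -0.20 was not called (limma adjusted p = 0.236). Without that array it was -0.34 with an adjusted p of 0.0408.

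RELB and REL were not called. RELB, the usual partner of p52, had signals of 261, 263 and 243 with LSD1 siRNA, against 307, 330 and 287 with control siRNA. The groups did not overlap, and the change of -0.25 had a 95% interval from -0.51 to 0.0035 (limma adjusted p = 0.108). REL, the c-Rel gene, had 475, 468 and 485 with LSD1 siRNA and 535, 512 and 431 with control siRNA at its brightest set, 235242_at. The LSD1 siRNA arrays lay inside the range of the controls, and the change was -0.044 (95% interval from -0.27 to 0.18; limma adjusted p = 0.772). The set 228812_at had 438, 423 and 359 with LSD1 siRNA and 537, 451 and 471 with control siRNA, which did not overlap. Its change of -0.25 had an unadjusted interval that ended just below 0, at -0.0045, and was not called (limma adjusted p = 0.109). The sets 206036_s_at and 239486_at had changes of 0.012 and 0.052 with overlapping groups, and 206035_at, at 19.9 to 41.5 with LSD1 siRNA and 15.4 to 24.7 with control siRNA, was below the filter. A p that misses the threshold does not show that these subunits were unchanged, and the intervals give the sizes the arrays allow.

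**Figure D2:**
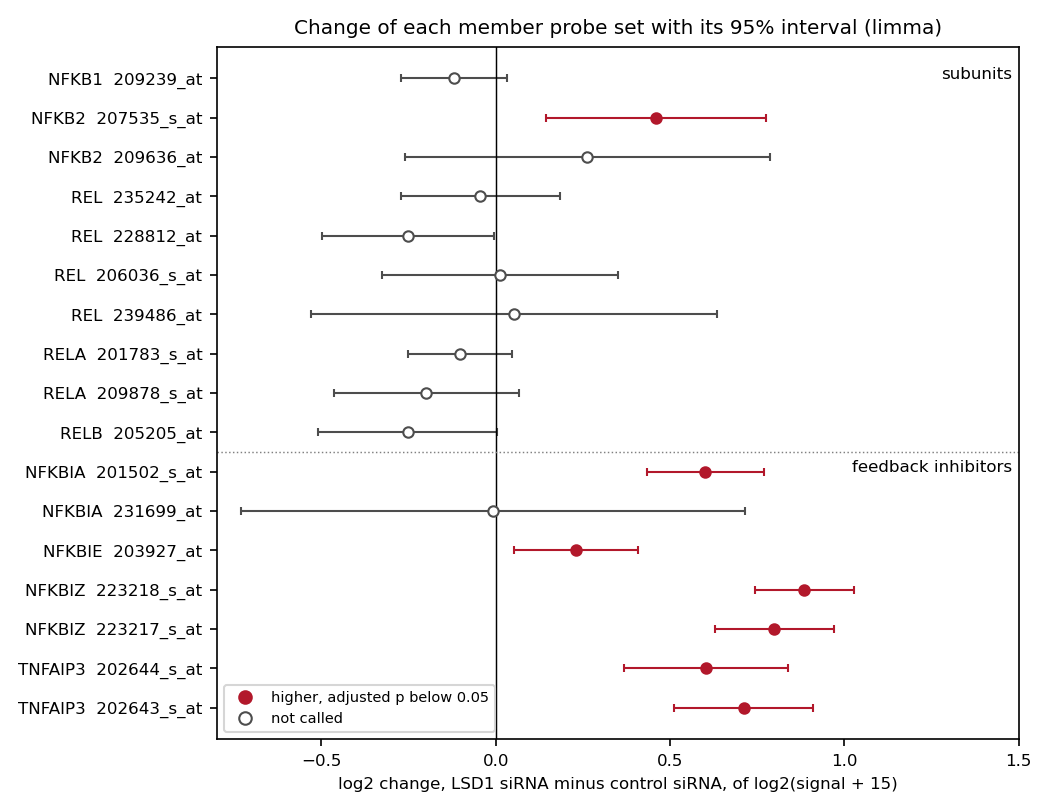
Log2 change of each of the 17 member probe sets above the filter, with its 95% interval from the limma fit over 27107 probe sets. Filled red points were called higher and open points were not called. Of the 7 inhibitor sets 6 were called, and of the 10 subunit sets 1 was called, the NFKB2 set 207535_s_at.

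When all 27107 probe sets were tested, 7 of the 17 member sets that passed the filter were higher and 0 were lower. Over all probe sets 34.5% were called, 17.1% as higher and 17.4% as lower. At an unadjusted p of 0.05 the members' counts were 7 higher and 1 lower, the lower one being the REL set 228812_at. The 7 sets were both of NFKBIZ, both of TNFAIP3, the bright set of NFKBIA and the sets of NFKBIE and NFKB2 described above. The 10 subunit sets had a median change of -0.07, with 4 values above 0 and 6 below. The 7 inhibitor sets had a median of 0.60, with the dim NFKBIA set as the one value below 0. Arrays were separate by group for 11 of the 17 sets, against 46.0% of all probe sets.

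**Figure D3:**
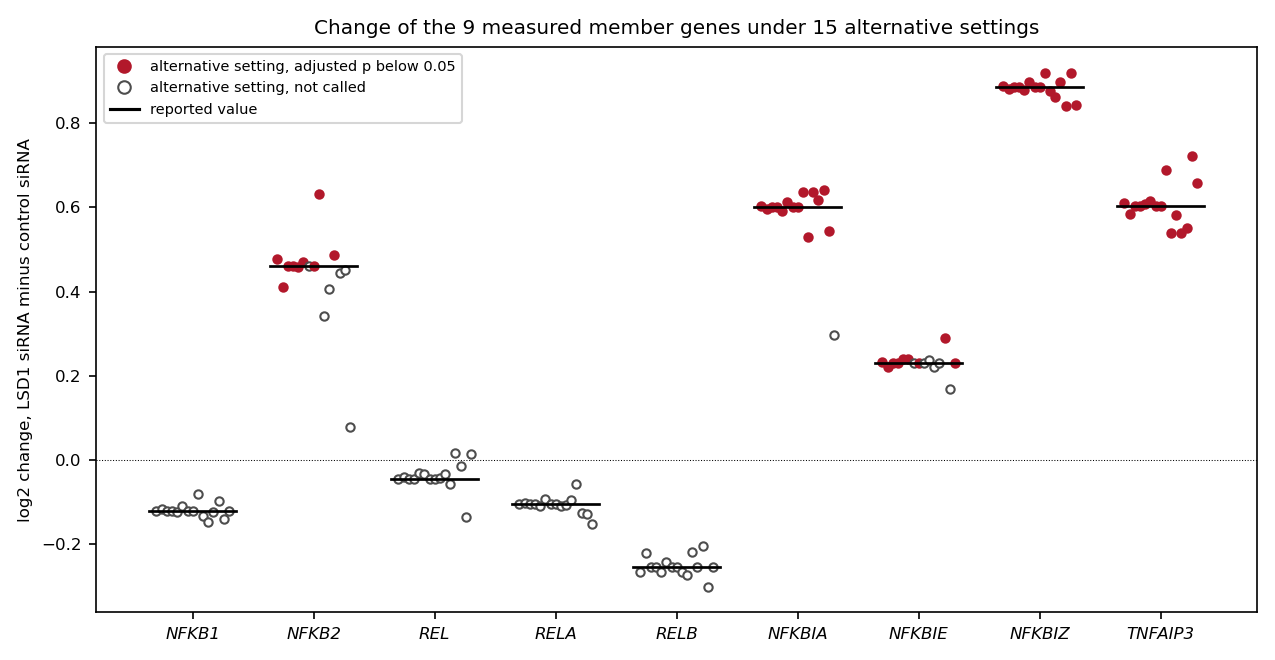
Log2 change of the 9 measured member genes as reported (black line) and under 15 alternative settings (points, red where the adjusted p was below 0.05). NFKBIZ and TNFAIP3 were called under each setting, NFKBIA under 14 of 15, and NFKB2 and NFKBIE under 9 of 15 each.

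The 5 calls were unequal in how far they held. NFKBIZ stayed between 0.84 and 0.92 over the 15 alternatives and TNFAIP3 between 0.54 and 0.72, and both were called throughout. NFKBIA lay between 0.53 and 0.64 when single arrays were left out. NFKB1, REL, RELA and RELB were called under none of the 15, and the lowest adjusted p among them was 0.0523, for RELB. A ratio of 3' to 5' signal for the ACTB control probes, a measure of RNA integrity, was 1.33 to 1.39 on the LSD1 siRNA arrays, against 1.74, 1.43 and 1.33 on control arrays 1, 2 and 3. Without control array 1, the members called higher were 4, with NFKBIE lost, and NFKBIZ had a change of 0.90.

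Other genes of the pathway were grouped by role, and the inhibitors were not alone among its brakes in rising. Of 16 tested brakes outside the members, 7 rose and 3 fell (7 and 5 at an unadjusted p of 0.05, limma), with a median log2 change of 0.11. Over all genes tested 19.8% were called higher and 21.3% lower, with a median of -0.02. The lists by role were chosen with earlier results of these data known. TNIP1 and TNIP3, which encode binding partners of A20, rose by 0.78 ± 0.06 and 2.47 ± 0.22, and CYLD, a deubiquitinase gene, rose by 1.26 ± 0.10 (SE; limma adjusted p of 4.09e-06 or less). OTULIN, which removes linear ubiquitin chains, changed by -0.76 ± 0.08, TRAF3, which keeps the kinase NIK low, by -0.60 ± 0.07, and OTUD7B by -0.28 ± 0.10. With the mean of all their probe sets TRAF3 (-0.25, adjusted p = 0.105) and OTUD7B (-0.023, adjusted p = 0.943) were not called and OTULIN was at -0.47, so that 1 brake in place of 3 was lower. The call of OTUD7B was also lost without LSD1 siRNA array 1 or 2, without control array 2 or 3, with no intensity trend and when dim genes were not filtered out (adjusted p between 0.0507 and 0.112).

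Upstream of IkappaB, 9 of 15 tested receptors rose and 0 fell, with a median of 0.74 (at an unadjusted p of 0.05, 10 and 0). Among all genes tested 19.8% rose and 21.3% fell, with a median of -0.02. LY96, the partner of Toll-like receptor 4, rose by 1.79 ± 0.10, IL1RAP by 2.01 ± 0.24, TNFRSF1B by 1.36 ± 0.13 and the interleukin-1 receptor gene IL1R1 by 1.33 ± 0.08. Of 26 tested kinases and adaptors, 10 rose and 4 fell (11 and 5 at an unadjusted p of 0.05), with a median of 0.10. MAP3K8 (1.43 ± 0.12), IRAK2 (1.12 ± 0.10) and RIPK2 (0.66 ± 0.08) rose, and IRAK1 (-1.14 ± 0.07), MAP3K3 (-0.70 ± 0.11), CARD10 (-0.37 ± 0.07) and MAP3K7 (-0.27 ± 0.07) fell. The genes of IkappaB kinase itself, CHUK, IKBKB and IKBKG, named here after their values were seen, had values of -0.00031, 0.022 and 0.10 that were not called. With the mean of all probe sets, MAP3K8 (0.78), IRAK2 (0.56) and IL1RAP (1.03) passed with smaller changes, CARD10 was not called (-0.30, adjusted p = 0.343), and 6 kinases and adaptors in place of 10 were higher.

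Of 14 tested cytokine and chemokine targets, 11 were higher and 0 lower, also at an unadjusted p of 0.05, and with no intensity trend 1 was lower. For this list and the other targets the share over all genes tested was 19.8% higher and 21.3% lower. CXCL5, CXCL2 and CCL5, named here after their values were seen, had mean control signals under 30.5 and passed the filter only through the LSD1 siRNA arrays, so their calls carry no weight. With the filter at the 60th percentile 8 were higher. CCL20 (5.50), CXCL3 (4.35), IL1A (3.91; 1.87 with the mean of its sets) and IL1B (3.32) had the smallest p of the list. TNF (0.27), CXCL10 (0.22) and LTB (-0.41), named here after their values were seen, were not called. The genes with the smallest p were picked by these data, so their size is no measure of targets against inhibitors. Of 18 other targets, 12 rose and 2 fell (13 and 2 at an unadjusted p of 0.05), with a median of 0.73. The complement gene C3 (2.99), the survival gene BCL2A1 (3.38), the prostaglandin synthase gene PTGS2 (2.47) and PTX3 (1.08) rose, while GADD45B (-0.26) and CD83 (-0.32) fell. The call of CD83 was lost without LSD1 siRNA array 2 (adjusted p = 0.0911), LSD1 siRNA array 3 (0.0596) or control array 2 (0.0530), which left 1 lower gene in this list. The target lists hold genes that several other factors also control.

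**Figure D4:**
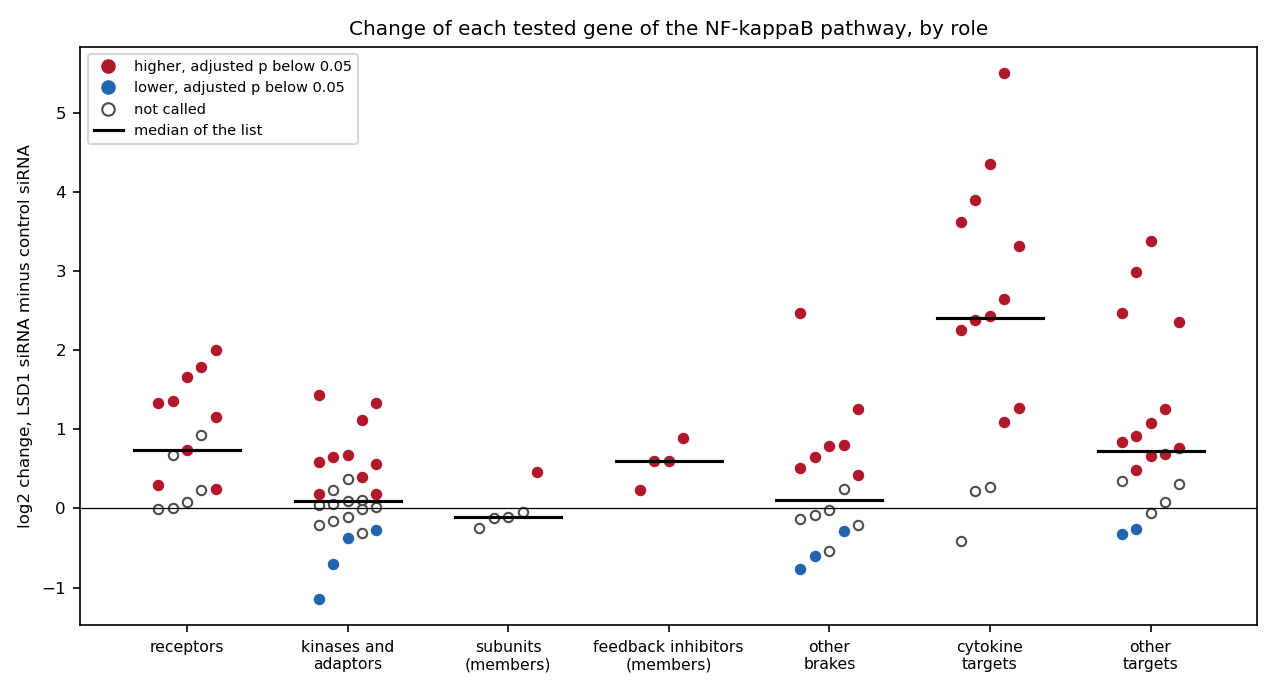
Log2 change of each tested gene of the pathway by role, from receptors to targets, with filled points for called genes and a line at each list's median. The subunits lie between -0.25 and 0.46, the inhibitors between 0.23 and 0.89, and the cytokine targets between -0.41 and 5.50.

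The line's label was checked against its markers. VIM, the mesenchymal filament gene, had a mean signal of 27438 ± 1946 with LSD1 siRNA and 32798 ± 4856 with control siRNA, and KRT18, an epithelial keratin gene, had 12146 ± 476 with LSD1 siRNA and 16731 ± 2339 with control siRNA (SD, n = 3 each). ESR1, the estrogen receptor gene, was dim, at 75.7 ± 24.6 with LSD1 siRNA and 59.1 ± 6.65 with control siRNA. PGR, CDH1 and ERBB2 were also listed as low in this line and are named here after their values were seen. PGR had means of 29.5 with LSD1 siRNA and 60.7 with control siRNA, and CDH1 129 and 163. ERBB2 was brighter, at 507 with LSD1 siRNA and 581 with control siRNA. Of the line's 9 markers KRT18 (-0.45), KRT8 (-0.25) and EGFR (-0.25; 0.11 with the mean of its sets) were lower and 0 were higher, with 5 and 0 at an unadjusted p of 0.05 (limma). Called were 33.3% of these, and 16.7% of the tested genes of both the leukocyte and the fibroblast list below, against 41.1% of all genes tested. The call of EGFR was lost with no intensity trend and without LSD1 siRNA array 1 or 2 or control array 2 or 3 (adjusted p between 0.0559 and 0.0887), and that of KRT8 with no intensity trend or without LSD1 siRNA array 3 (0.0529 and 0.0510). VIM was called (-0.35, adjusted p = 0.00605) without control array 3. NF-kappaB genes are active in leukocytes, and of 12 leukocyte markers 1, LAPTM5, rose (1.20 ± 0.06), 5 were below the filter and 1 had no probe set. The summed signal of the list was 7932 to 7954 with LSD1 siRNA and 3489 to 3922 with control siRNA, most of it LAPTM5, whereas PTPRC, the pan-leukocyte gene, was below the filter at 17.3 to 41.3 with LSD1 siRNA and 4.81 to 43.8 with control siRNA. Of 8 fibroblast markers 1, LUM, was called higher, at signals of 86.3 to 101 with LSD1 siRNA and 0.518 to 4.58 with control siRNA. LUM passed the filter only through the LSD1 siRNA arrays, and the size of its log2 change is set by the added constant (5.33 with 1, 2.71 with 15 and 1.33 with 60). The summed signal of the fibroblast list was 669 to 874 with LSD1 siRNA and 599 to 741 with control siRNA. In bulk RNA, fewer cells of a type and less RNA per cell cannot be told apart. The part of these markers in the members' changes was not tested.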

How the data were processed

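The values deposited by the authors are signal intensity on a linear scale, 54675 probe sets on each of 6 arrays. GCOS, Affymetrix Expression Console 1.1 and MAS5 are named in the submitters' processing notes. All arrays have a trimmed mean intensity of 500.1, which shows that they were scaled before deposit, and detection calls were not used here. Such scaling removes differences in total RNA per cell. Probe sets were named by the platform annotation, and 41043 of 41097 sets with 1 symbol matched a RefSeq gene ID. The log2 of signal + 15, the 25th percentile, was tested with limma 3.58.1 in R 4.3.3 (two-sided, intensity trend, Benjamini-Hochberg adjustment, threshold 0.05), over 13847 genes, each by its brightest set, and again over 27107 sets. Features with a mean signal of at most 30.5, the 40th percentile, were left out. The fit was run on simulated data with independent noise and far fewer changed genes than were called here. That run checked the code and says nothing about how reliable these calls are. Same-numbered arrays did not deviate together (correlations -0.004 to 0.03), so no pairing was used. The members and lists were chosen with earlier results of these data known. Named genes are KDM1A, the members, up to 4 called genes with the smallest p from each pathway list, the few called against their list, and called markers with VIM, KRT18, ESR1 and PTPRC. Figures used matplotlib 3.10.9. Alternatives changed the added constant, filter, normalization, variance model, pairing, probe set choice and arrays used.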

Additional observations from a re-analysis of the deposited data

How the results depend on the processing

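Of 9 tested member genes, 5 were higher as reported, and 3 were higher with no intensity trend and with the mean of all probe sets. Leaving out single arrays gave 3 to 4 higher member genes, with the lowest count without LSD1 siRNA replicate 2, LSD1 siRNA replicate 3 or control siRNA replicate 3. NFKBIE or NFKB2, or both, were the genes lost when an array was left out, and NFKBIA and NFKB2 (0.078, adjusted p = 0.762) with the mean of all probe sets. The count of lower member probe sets was 0 to 1 when single arrays were left out, the one being a RELA set without LSD1 siRNA replicate 2. With the replicate number as a block, 5 member genes and 7 member probe sets were higher, as without it, so no member's call changed, and 5697 genes were called in place of 5686.

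Signs turned only for values that were not called, EGFR excepted, which was 0.11 with the mean of its probe sets. REL was at 0.016 with the mean of its sets, and REL and REL probe set 235242_at were at -0.13 to 0.017 when single arrays were left out. Over the same leave-outs REL probe set 206036_s_at was at -0.13 to 0.16, REL probe set 239486_at at -0.084 to 0.27, NFKB2 probe set 209636_at at -0.064 to 0.52 and NFKBIA probe set 231699_at at -0.16 to 0.28. That NFKBIA set was at 0.011, 0.0031 and 0.0022 with a constant of 1, quantile normalization and median centring, and REL 206036_s_at at -0.011 after quantile normalization. For these values the extremes were without control replicate 1 or 3, except the lowest of REL 239486_at and of the dim NFKBIA set, which were without control replicate 2. The cause was not tested. With no filter, NFKB2 probe set 207535_s_at and NFKBIE probe set 203927_at were not called (adjusted p = 0.0536 and 0.0596). Dim sets had the least precise changes, with a standard error of 0.33 for NFKBIA probe set 231699_at, against 0.08 for the bright NFKBIA set.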
